A study of Mus musculus with 4 samples.

Results

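The PGC-1 coactivators and the nuclear receptors and transcription factors that work with them were examined by the start sites of their transcripts in skeletal muscle of AMPKα2 knockout (KO) and wild-type (WT) mice. The set held 10 genes chosen by symbol: Ppargc1a, Ppargc1b, Esrra, Esrrb, Esrrg, Ppara, Ppard, Nrf1, Tfam and Rxra. Of these, 8 had at least 1 listed alternative start site (ASS), and together they took 49 of the 42207 ASSs and 8 of the 9838 genes in the table. Esrrb and Ppard had no row, and no site reached them under another symbol. Counts came from whole transcriptome start site sequencing (WTSS-seq), in which a read begins at the 5′ end of an RNA or of a fragment of it, with 2 libraries per genotype. The KO mice were C57BL/6 animals that lacked part of the catalytic domain of AMPKα2 (encoded by Prkaa2) in every tissue, and the controls were WT mice. By the study's methods all animals were males, with the gastrocnemius as the muscle and 1 mouse per library. The KO mice were about 8 weeks old, while the age of their controls is not given in the sources used here.

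AMPK is a kinase that senses low cellular energy, and PGC-1α is a coactivator that it can phosphorylate. PGC-1α binds no DNA itself. It is recruited by nuclear receptors such as the estrogen-related receptors (ERRs) and the PPARs, and by nuclear respiratory factor 1, to raise the transcription of genes for mitochondria and fat oxidation. PPARs bind DNA as partners of a retinoid X receptor, and TFAM, a target of nuclear respiratory factors, carries the program into the mitochondrion by packaging and transcribing mitochondrial DNA.

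The KO libraries, with 2900279 and 2303294 reads, were both deeper than the WT libraries, with 1300069 and 1568945. A site was listed only with at least 10 reads over the 4 libraries, so an unlisted site can hold at most 9. Replicates were further apart than counting noise allows, with a chi-square per degree of freedom of 13.5 in KO and 11.6 in WT. Prkaa2, the targeted gene, had 149 and 183 normalized reads in KO against 153 and 186 in WT. With a difference of -0.03 on the log2 scale (SE 0.50, adjusted p = 0.994 by DESeq2), its summed reads gave no check of the genotype labels. All 14 skeletal muscle markers were detected, led by Ttn, Myh4 and Atp2a1. Summed adipocyte markers ran from 2989 to 5908 normalized reads in KO and from 3313 to 5874 in WT. Nearly all of these reads were those of Fabp4 (5792 and 2861 in KO, 5720 and 3197 in WT). Summed fibroblast markers ran from 3122 to 3552 in KO and from 4482 to 4663 in WT.

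Of the 49 sites, 1 lay in a RefSeq promoter window. Such a window runs from 250 bases before to 50 bases after an annotated gene start. The site belonged to Esrra, the gene of ERRα, on the minus strand of chromosome 19 (GRCm38) at positions 6921809 to 6921812. Relative to the annotated start at 6921808, it covered the 4 bases just upstream. The RefSeq window chr19:6921759-6922058 (GRCm38.p6, minus strand, 5′ to 3′) is shown because it is the only member promoter with a counted start, and the capitals mark the site.
Esrra: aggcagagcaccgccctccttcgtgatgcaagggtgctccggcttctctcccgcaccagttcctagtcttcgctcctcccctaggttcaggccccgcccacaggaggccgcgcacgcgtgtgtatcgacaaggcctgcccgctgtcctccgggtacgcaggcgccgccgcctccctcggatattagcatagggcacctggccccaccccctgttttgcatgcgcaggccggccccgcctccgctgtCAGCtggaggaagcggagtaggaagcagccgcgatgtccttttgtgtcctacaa
This site held 17 reads in all, of which KO had 0 and 11 and WT had 4 and 2. The groups overlapped, and KO replicate 1, the deepest library, had none. The other 6 detected members with a RefSeq window had no counted site inside one. The 5 sites of Ppargc1b had no window to fall in. Over the table, 736 of 6841 detected genes with a window (10.8%) had a site in it. Of the 30033 sites of those genes, 758 (2.52%) lay in a window, so the member share was near that background. Such sites held 3.75% of the reads of those genes.

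The member promoters were searched on both strands for 3 motifs of the factors in this network. The ERR element TCAAGGTCA was in none of the 15 windows of the members and in 0.423% of all 32851 RefSeq windows. The nuclear respiratory factor 1 core GCATGCGC was in 2.71% of all windows, and among the members in those of Esrra, 34 bases before the start, and Ppara, where copies on the 2 strands overlapped at 31 and 29 bases before the start. The GABP (nuclear respiratory factor 2) core CCGGAAGT was in 3.89% of all windows and, among the members, in that of Tfam, 47 bases before its start. The matching stretches of Tfam (chr10:71238058-71238117, minus strand) and Ppara (chr15:85735721-85735780, plus strand) are shown so that the matches can be read, with the motif in capitals.
Tfam: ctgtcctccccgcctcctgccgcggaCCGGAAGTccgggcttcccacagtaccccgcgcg
Ppara: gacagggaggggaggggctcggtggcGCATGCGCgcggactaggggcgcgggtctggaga
A match is a run of letters, and no binding was measured here.

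The counted starts lay elsewhere in the genes. By the class codes of the table, 30 of the 49 sites (61.2%) were intronic, against 52.0% of the 40426 sites with a gene, and 17 were contained in an annotated transcript. Of those 17 sites, 12 lay within 5 kb of the 3′ end of the gene, in 6 of the 8 genes. The matching share over all contained sites was not computed. The sites were 1 to 108 bp wide, and 31 of them (63.3%) had the majority of their reads in a single library, against 52.7% of all sites with a gene. In 8 sites (16.3%) both WT libraries were at 0, against 11.6% of all sites with a gene. No member site was at 0 in both KO libraries, against 2.28% of all.

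**Figure D1:**
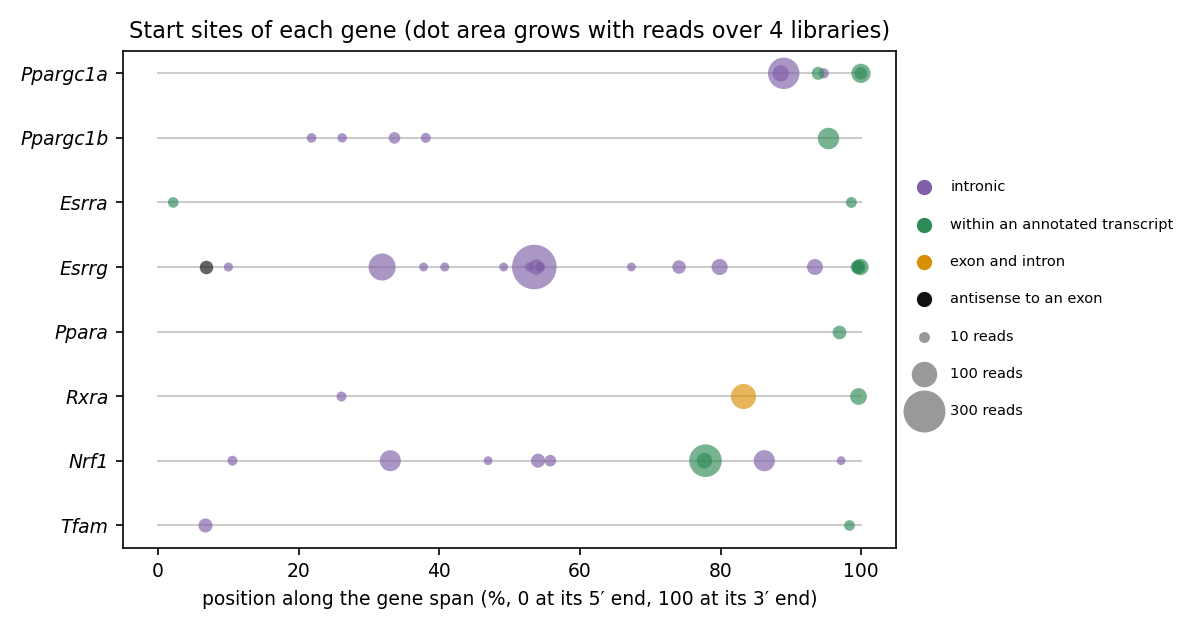
Position of each of the 49 ASSs along its gene, as a percentage of the gene span from the 5′ end (0) to the 3′ end (100), with dot area growing with reads over the 4 libraries and colour giving the class code. Many sites lie in introns or near the 3′ ends, and the 6 sites of Ppargc1a all lie in the last stretch of its long annotated span.

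Per 10 kb of gene span, the only length the tables gave for every member, Nrf1 had the highest level, 11.2 ± 3.78 normalized reads (SD, n = 4 libraries), followed by Tfam (8.37 ± 5.95), Esrra (7.02 ± 5.99) and Rxra (4.81 ± 0.411). Esrrg (3.34 ± 1.08), Ppargc1b (2.86 ± 0.676), Ppargc1a (1.21 ± 0.282) and Ppara (0.944 ± 0.517) followed. Of the neighbours in this order, Ppargc1b and Ppargc1a lay apart by more than the sum of their SDs, and Rxra and Esrrg by more than either SD but less than the sum. The other neighbours differed by less than the larger of their SDs. Spans include introns, so this scale is not one of transcript length. The span of Ppargc1a was 662 kb, yet its site 316 bp before the 3′ end lay only 113 kb past its annotated start. Its low place in this order, and its gap to Ppargc1b, therefore depend on the span used.

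None of the members passed the test between KO and WT. Of the 8 detected genes, 5 had enough reads for an adjusted p and 0 were called (DESeq2 Wald test, adjusted p under 0.1), none of them had an unadjusted p under 0.05, and edgeR called 0 of the 6 it tested, also with none under 0.05 unadjusted. Of all 4688 genes tested, 1.71% were called higher and 0.96% lower in KO (2.67% in all, and 0.883% by edgeR). The median log2 fold change of the 5 tested members was 0.41, against 0.01 over all tested genes. The 95% intervals below give the range of changes compatible with the counts of the 2 libraries per group. In whole muscle, a change in the share of a cell type and a change in RNA per cell cannot be told apart.

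**Figure D2:**
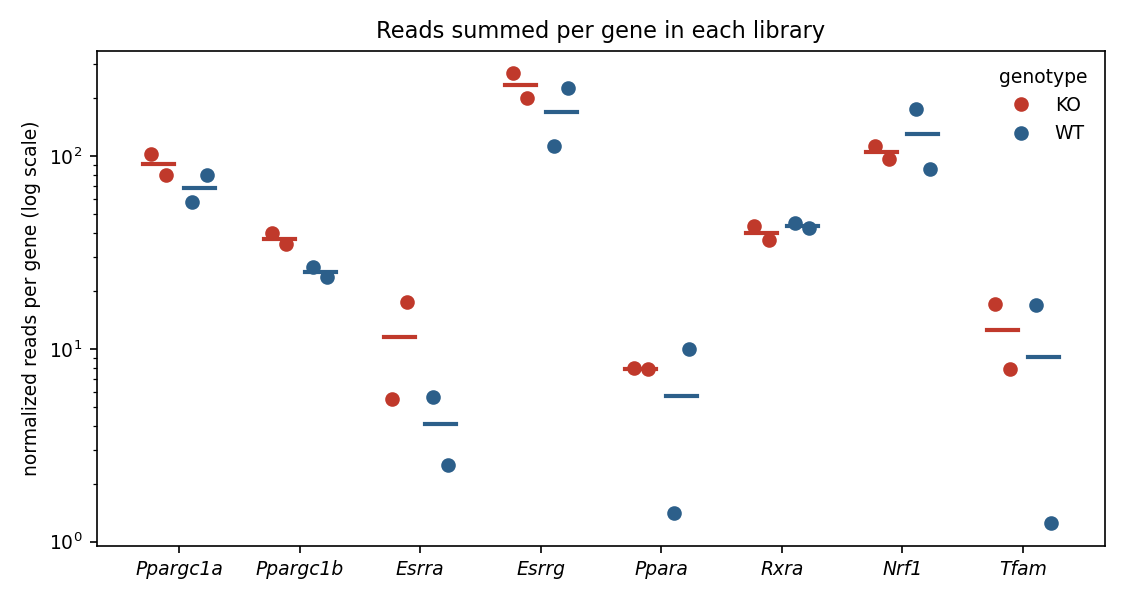
Normalized reads per gene (log scale) in each KO and WT library, with points for libraries and bars for the mean of each genotype (n = 2). Only for Ppargc1b do both KO points (39.7 and 35.0) lie above both WT points (26.6 and 23.7).

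Ppargc1a, the gene of PGC-1α on chromosome 5, had 169 and 91 reads in KO against 41 and 64 in WT, or 103 and 79.5 normalized reads in KO against 57.5 and 79.7 in WT. The groups overlapped by a small margin, since KO replicate 2 lay just under WT replicate 2. Its log2 fold change was 0.41 (SE 0.61, 95% interval -0.78 to 1.61, adjusted p = 0.954), so a fall to 0.581 times and a rise to 3.05 times the WT level both lay inside the interval. Its largest site was intronic, at 51527245 to 51527261 (minus strand), 40.5 kb past the annotated start. It held 104 and 44 reads in KO against 14 and 23 in WT. Normalized, both KO libraries (68.2 and 38.0) lay above both WT libraries (19.0 and 26.6), yet the site was not called (log2 fold change 1.22, SE 0.92, adjusted p = 0.901). Its unadjusted p of 0.185 was the smallest of the 16 tested member sites. The other 5 sites of Ppargc1a held 15 to 66 reads each, and the 2 nearest the 3′ end lay 316 and 427 bp before it.

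Ppargc1b, the gene of the related coactivator PGC-1β on chromosome 18, was the only member whose groups did not overlap. It had 65 and 40 reads in KO against 19 and 19 in WT, and 37.3 ± 3.36 normalized reads in KO against 25.2 ± 2.11 in WT (SD, n = 2). Across all tested genes, both KO libraries were above both WT libraries in 22% and below them in 19.4%, so 1 of 5 tested members above and 0 below was near that background. The log2 fold change was 0.57 (SE 0.83, 95% interval -1.05 to 2.20, adjusted p = 0.953). The largest site, contained in the transcript at 61296623 to 61296705, held 51 and 16 reads in KO against 6 and 10 in WT. Its 4 intronic sites held 12 to 21 reads each, and which library led differed between them: the site at 61359124 had 0, 5, 9 and 0 reads and that at 61364008 had 11, 9, 1 and 0, in the order KO 1, KO 2, WT 1, WT 2.

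Esrra, whose ERRα protein partners PGC-1α at genes of oxidative phosphorylation, was thinly covered. Its 2 sites gave 9 and 20 reads in KO against 4 and 2 in WT, too few for an adjusted p. Normalized counts were 5.50 and 17.5 in KO against 5.61 and 2.49 in WT, so the groups overlapped, and the interval of the log2 fold change ran from -1.62 to 4.63 around its estimate. The second site, at 6911128 to 6911140 and 157 bp before the gene's 3′ end, held 9 and 9 reads in KO against 0 and 0 in WT. Its unadjusted p of 0.0943 was the smallest of all 49 member sites, and it had no adjusted p. At 0 reads a WT library still allows up to 3, and no fold is given.

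Esrrg, the gene of ERRγ, a receptor of oxidative tissues, had the most sites and reads of the members, with 21 sites over 606 kb of chromosome 1 (14 intronic, 6 contained and 1 antisense). It had 441 and 230 reads in KO against 81 and 181 in WT, or 269 and 201 normalized reads in KO against 114 and 225 in WT. WT replicate 1 was the low library, and the other WT library lay between those of KO. Its log2 fold change was 0.47 (SE 0.53, 95% interval -0.57 to 1.51, adjusted p = 0.929). Its largest site, intronic at 187932886 to 187932920 (plus strand), held 205 and 42 reads in KO against 35 and 94 in WT, so KO replicate 1 and WT replicate 2 were the high libraries and the groups overlapped. The next, at 187801680 to 187801682, was more even, with 53 and 50 reads in KO against 16 and 17 in WT, and normalized 34.8 and 43.2 against 21.7 and 19.6. It was not called either (log2 fold change 0.91, SE 0.97).

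Intronic sites held most Esrrg reads in every library: 85.3% (exact 95% interval 81.6 to 88.4) and 68.3% (61.8 to 74.2) in KO, and 84.0% (74.1 to 91.2) and 86.2% (80.3 to 90.9) in WT. The KO libraries thus differed from each other by more than counting error, while the WT libraries did not. The antisense site, at 187649541 to 187649545 on the minus strand, had 16 and 12 reads in KO against 2 and 0 in WT. It overlapped the predicted gene Gm36388, so its place under Esrrg is uncertain. The genes whose pattern over the 4 libraries came closest to that of Esrrg, by root-mean-square difference of centred log2 normalized counts among 1044 genes of like level, were Ino80 (0.105), Rrp12 (0.119) and Klf9 (0.147).

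Ppara, the gene of the fat-oxidation receptor PPARα on chromosome 15, had a single site, contained in the transcript at 85804518 to 85804528. It held 13 and 9 reads in KO against 1 and 8 in WT, or 7.94 and 7.86 normalized reads in KO against 1.40 and 9.96 in WT. The groups overlapped, and the gene was too low for an adjusted p (log2 fold change 0.47, 95% interval -2.82 to 3.75). Rxra, the gene of the shared partner RXRα on chromosome 2, was the steadiest member. It had 43.4 and 36.7 normalized reads in KO against 44.9 and 42.3 in WT, from 71, 42, 32 and 34 reads, and its log2 fold change was -0.12 (SE 0.74, 95% interval -1.57 to 1.33, adjusted p = 0.992). Its main site ran from exon into intron at 27748592 to 27748691 (50 and 22 reads in KO, 18 and 26 in WT).

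Nrf1, the gene of nuclear respiratory factor 1 on chromosome 6, had 185 and 111 reads in KO against 125 and 69 in WT. Normalized, this was 113 and 97.0 in KO and 175 and 85.9 in WT, so both KO libraries lay between the WT libraries. The log2 fold change was -0.31 (SE 0.58, 95% interval -1.45 to 0.83, adjusted p = 0.974). Its largest site, contained in the transcript at 30130085 to 30130089, held 63 and 55 reads in KO against 49 and 32 in WT. The high level of WT replicate 1 stood beside the intronic site at 30082815 to 30082822, where KO held 28 and 10 reads and WT held 42 and 0. The intronic share of Nrf1 reads was 59.5% and 42.3% in KO and 55.2% and 33.3% in WT, so the libraries of a genotype lay further apart than the means of the genotypes.

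Tfam, the gene of the mitochondrial DNA packaging and transcription factor on chromosome 10, had 28 and 9 reads in KO against 12 and 1 in WT, or 17.1 and 7.86 normalized reads in KO against 16.8 and 1.25 in WT. The first library of each genotype was the high one and the groups overlapped. Its log2 fold change was 0.48 (95% interval -2.39 to 3.35), with too few reads for an adjusted p. The intronic site at 71237464 to 71237467, 579 bp past the annotated start, had 19 and 1 reads in KO against 12 and 1 in WT. The site at 71225690 to 71225694, 225 bp before the 3′ end, had 9 and 8 reads in KO against 0 and 0 in WT. With the Esrra site at the 3′ end this was a site where only KO had reads, and the KO libraries were the deeper ones. The part of depth in this was not tested.

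**Figure D3:**
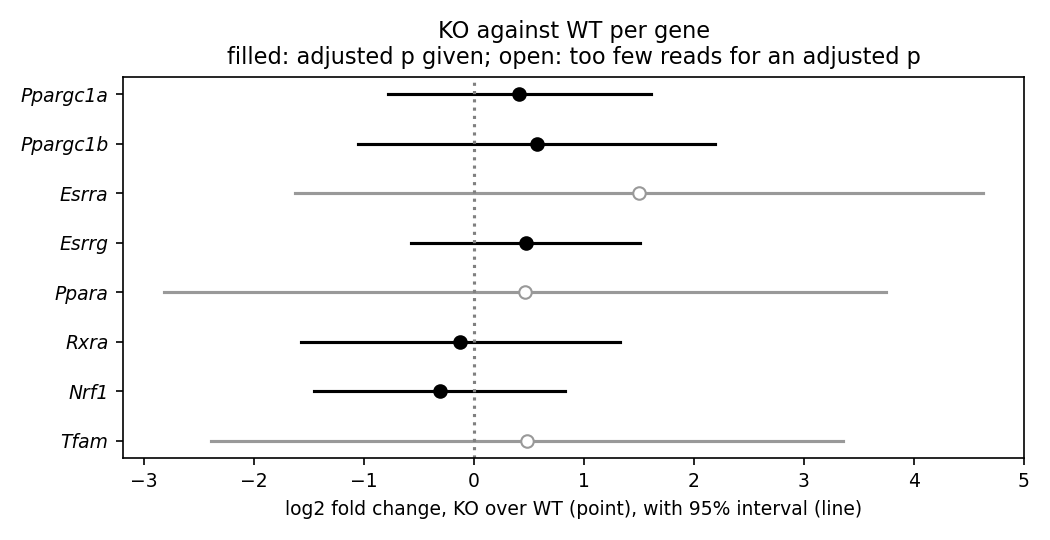
Log2 fold change of KO over WT per gene with its 95% interval, filled where an adjusted p was given and open where the reads were too few. Every interval crosses 0, from Esrrg (-0.57 to 1.51), among the narrowest, to Ppara (-2.82 to 3.75), among the widest.

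At the level of sites, 0 of the 16 tested member ASSs were called, against 2.33% higher and 0.882% lower in KO over 11112 tested sites (3.21% in all, and 0.712% by edgeR). The other 33 sites had too few reads for an adjusted p. No tested member site had an unadjusted p under 0.05, and none of the 17 in edgeR did. Both KO libraries were above both WT libraries in 6 of the 16 tested sites and below in 1, beside 23% and 17.4% of all tested sites. The use of start sites within a gene could be tested in 4 members, Esrrg (6 sites), Nrf1 (4), Ppargc1a (3) and Rxra (2). None was called (diffSpliceDGE, Simes method, 1.35% of 2145 genes called) and none had an unadjusted p under 0.05.

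**Figure D4:**
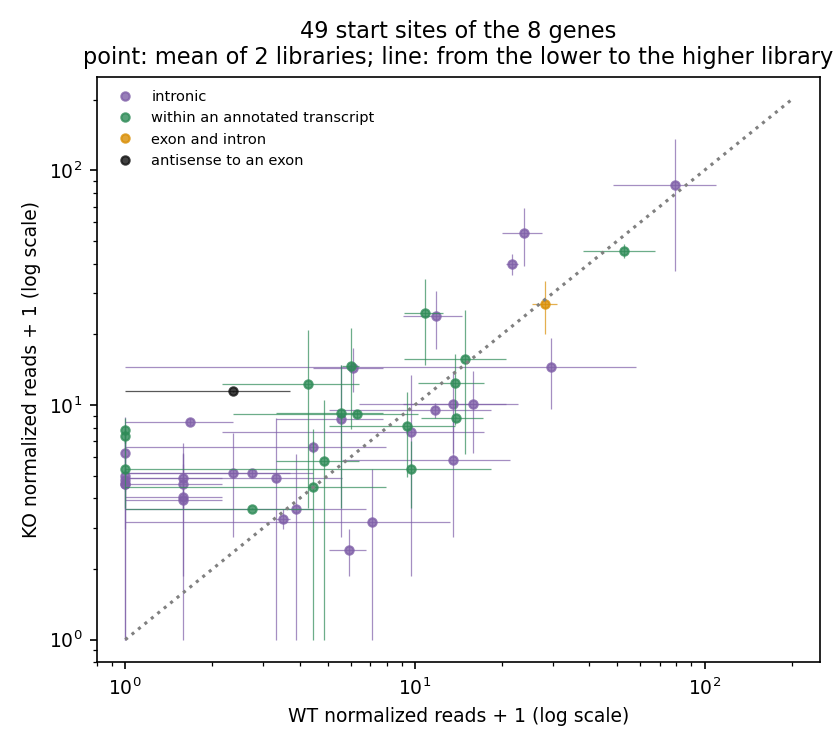
KO against WT normalized reads of the 49 ASSs plus a pseudocount of 1, both on log scales, with points for the mean of 2 libraries and lines from the lower to the higher library. The dotted line marks equal levels, and 8 sites sit at the left edge with 0 reads in both WT libraries.

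The genes around these regulators were read through 7 lists: other nuclear receptors, other coactivators and corepressors, mitochondrial DNA and transcription factors, PPAR targets, ERR and PGC-1 targets, upstream regulators of Ppargc1a, and the genes of the mitochondrial genome. Across the lists, 1 of 100 tested genes passed the test (1%), upward, which is no more than the 1.71% called higher and 2.67% called in all among tested genes. Ogdh, a subunit gene of the 2-oxoglutarate dehydrogenase of the citric acid cycle and listed as an ERR and PGC-1 target, had 3243 and 2366 normalized reads in KO against 689 and 1436 in WT, with both KO libraries above both WT libraries. Its log2 fold change was 1.40 (SE 0.47, DESeq2 adjusted p = 0.0995), just inside the threshold, and the edgeR adjusted p was 0.313. Of the 26 tested ERR and PGC-1 targets, 16 had a positive and 10 a negative log2 fold change, with a median of 0.11. Sdha (-0.34, adjusted p = 0.951), a respiratory complex II subunit, and Slc25a4 (-0.39, adjusted p = 0.929), the muscle ATP/ADP carrier, had the most reads after Ogdh.

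Other nuclear receptors had a median log2 fold change of 0.53 over 15 tested genes, 11 of them positive, and 0 were called. Rora, a receptor of clock and lipid genes, had 1200 and 882 normalized reads in KO against 416 and 503 in WT (log2 fold change 1.18, adjusted p = 0.159). The thyroid hormone receptor gene Thrb (0.53) was not called. Coactivators and corepressors had a median of 0.31 over 16 tested genes, with Crebbp at 0.49, Ncoa2 at 0.32 and Ncor1 at 0.29, and 0 were called.

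PPAR targets had a median log2 fold change of -0.69 over 12 tested genes, 10 of them negative, and 0 were called. Over all 18 detected the median was -0.37, since 4 of the 6 with too few reads for an adjusted p had the higher mean in KO. Among those 6, Slc25a20, the mitochondrial carnitine-acylcarnitine carrier, had the smallest unadjusted p of the list, 0.0029, with 20 and 56 reads in KO against 1 and 0 in WT (edgeR adjusted p = 0.141). It was named after its values were seen. Pdk4, the kinase that shuts down pyruvate dehydrogenase, had 311 and 350 normalized reads in KO against 478 and 1094 in WT (log2 fold change -1.25, SE 0.49, adjusted p = 0.237). The groups did not overlap, and WT replicate 2 stood far above WT replicate 1. Lpl, which releases fatty acids from lipoproteins, was at -0.35, and the fatty acid transporter gene Slc27a1 was at 0.34 with 4.28 and 250 normalized reads in the KO libraries. The summed fibroblast markers lay lower in both KO libraries than in both WT libraries, as given above, with a median log2 fold change of -0.63 over 9 tested genes, and the adipocyte markers had one of -0.27 over 5. The summed macrophage and blood markers also lay lower in both KO libraries (286 and 301 normalized reads) than in both WT libraries (536 and 417), with a median log2 fold change of -0.38 over 6 tested genes and 0 called. Among them Adgre1, a macrophage surface marker also named after its values were seen, was at -1.96 (DESeq2 adjusted p = 0.150). Of the 6 tested, 4 were negative and 2 positive, the latter being Csf1r (0.45) and Alas2 (0.72), and Mrc1 was at -0.17. The summed endothelial markers lay higher in both KO libraries (303 and 324 normalized reads) than in both WT libraries (268 and 254). Flt1 held the largest part of these sums, with 236 and 175 in KO against 146 and 146 in WT. Pecam1 lay lower in both KO libraries, and in Vwf and Tek the groups overlapped. The median log2 fold change of the endothelial markers was 0.14 over 4 tested genes, with 0 called. Flt1 (0.49) and Vwf (0.68) were the 2 positive, Pecam1 (-1.45) and Tek (-0.22) the 2 negative. The part of these cell types in the PPAR target values was not tested.

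Upstream regulators of Ppargc1a had a median log2 fold change of 0.27 over 19 tested genes, 15 of them positive, and 0 were called. Mef2c, a muscle transcription factor, had the most reads, with 2811 and 9926 normalized reads in KO against 6155 and 4441 in WT, so the KO libraries lay on either side of the WT libraries. Camk2d (0.14) and Ppp3cb (0.66), genes of a calcium-dependent kinase and of a calcineurin subunit, were not called. Of the mitochondrial DNA and transcription factor list, 5 genes were tested and 0 called. The median was 0.22, and Yy1 stood at -1.92 (adjusted p = 0.825) on 1029 normalized reads in WT replicate 1 against 88.4 in WT replicate 2. Gabpa (0.22) and the mitochondrial helicase gene, listed as Peo1 (0.59), were not called. All 7 tested genes of the mitochondrial genome had negative log2 fold changes, with a median of -0.45, and 0 were called. Over all 10 detected the median was -0.34, and 2 of the 3 without an adjusted p had the higher mean in KO. Summed, the list had 38229 and 53335 normalized reads in KO against 49632 and 66592 in WT, so the groups overlapped. ND2 was at -0.65 (adjusted p = 0.668), ND6 at -0.58 and COX1 at -0.07. Slow fibre markers had a median of 0.55 over 7 tested genes, 6 positive and 1 negative, with 0 called. The 2 without an adjusted p had the higher mean in KO. The summed level of the slow fibre markers ran from 1211 to 1691 normalized reads in KO and from 560 to 1307 in WT. Fast fibre markers had a median of -0.07 over 12 tested genes, 2 positive and 10 negative, with 0 called. Their summed level ran from 36592 to 48294 in KO and from 34349 to 56466 in WT. In both lists the groups overlapped.

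**Figure D5:**
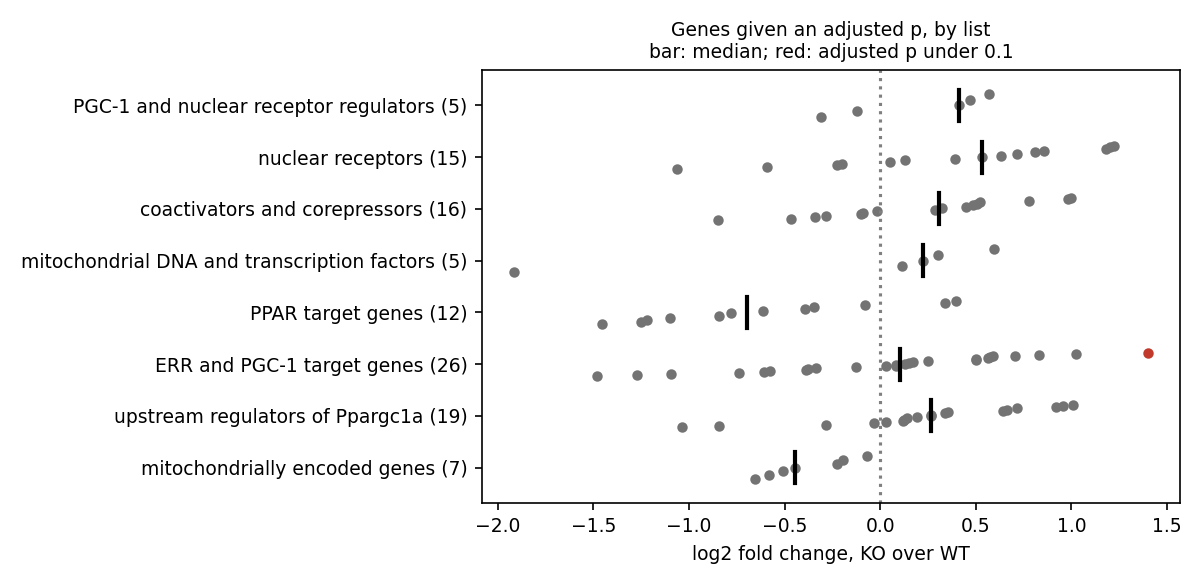
Log2 fold change of KO over WT for every gene with an adjusted p, in the members and the 7 lists (number of genes in parentheses), with bars at the medians. Ogdh at 1.40 is the only red point, and the medians run from -0.69 in PPAR targets to 0.53 in nuclear receptors.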

How the data were processed

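The authors deposited 1 table of raw read counts per clustered start site. By the study's methods, RNA depleted of ribosomal RNA was reverse transcribed with a switching primer and a semirandom primer, amplified by PCR and sequenced on an Ion PGM. Sites carry RefSeq genes and Cuffcompare class codes on GRCm38.p5. Mapping and clustering were described for sister 3′ libraries, and their settings for these 5′ libraries are not given in the sources used here. No molecular identifiers were described, so PCR copies count as reads. The intervals of shares and the floors cover counting error only, while those of log2 fold changes also include the fitted dispersion between libraries.

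Counts were compared as deposited, per site and summed per symbol, by DESeq2 version 1.42.0 under R 4.3.3 (Wald test), the study's method: size factors by median of ratios, independent filtering (mean normalized count of 16.5 for genes and 8.76 for sites) and a Benjamini-Hochberg adjusted p under 0.1. edgeR (version 4.0.16) gave the quasi-likelihood test and diffSpliceDGE. Reads of no gene (4.34% to 4.95% per library) stayed out of gene sums. The 95% intervals of log2 fold changes are normal intervals from the SE, and those of shares are exact (Clopper-Pearson). A count of 3 reads, 1.03 to 2.31 ppm of a library, was the floor. Motif and promoter letters came from RefSeq tables of GRCm38.p6, whose primary chromosomes share their coordinates with p5. No window of Ppargc1b was used. Scripts were tested on simulated data. The changes set there were larger than any member gene estimate, in features with more reads than most members had. That test therefore does not give the power for the members.

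The members and lists were chosen with earlier results of these data known. Named were all members, their largest site, every site in a promoter window or with an unadjusted p under 0.05, Prkaa2, called list genes and the 3 with most reads per list, and the 3 genes most like Esrrg. A list gene that the rule names is not reported here. Sites named beyond this rule were chosen after their values were seen. Alternatives covered the tool, size factors, filters, threshold, scaffolds, replicate block and leaving out each library. Each library was 1 mouse. The p-values of DESeq2 and edgeR rest on 2 mice per group and on a dispersion estimated partly from all genes.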

Additional observations from a re-analysis of the deposited data

How the results depend on the processing

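The counts of called member genes and member sites were 0 in every alternative run, which covered edgeR, other size factors, other filters, a threshold of 0.05, primary chromosomes alone and each library left out. The count of members with changed site usage was 0 with the gene-level F test, the threshold of 0.05, primary chromosomes alone, at least 10 reads in 2 libraries and each library left out, and it was not run with other size factors. The deviations of same-numbered KO and WT libraries were little correlated (0.0769 over genes and 0.0729 over sites). Noise between libraries lowers such a value too, so it cannot tell whether the samples were paired. With the replicate block 0 members were called as well. The log2 fold changes of Ppara and Nrf1 changed sign without WT replicate 1, to -0.33 and 0.29, that of Tfam without KO replicate 1 (-0.19) or WT replicate 2 (-0.45), and that of Rxra without KO replicate 2 (0.0023). Leaving out a library moved Ppargc1a between 0.20 and 0.64, Ppargc1b between 0.46 and 0.67, Esrrg between 0.06 and 1.02, Esrra between 0.46 and 2.20, Ppara between -0.33 and 2.47, Nrf1 between -0.77 and 0.29, Tfam between -0.45 and 3.33, and Rxra between -0.24 and 0.0023. Without WT replicate 2 the median over all genes moved by -0.11.

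The call of Ogdh, the 1 list gene higher in KO, was lost (0 genes) with edgeR, TMM factors, library totals, size factors without mitochondrial and ribosomal RNA, no independent filtering and the threshold of 0.05. With at least 10 reads in 2 libraries Slc25a20, a PPAR target, was called higher in its place. In these settings the log2 fold change of Ogdh stayed between 1.36 and 1.43. With the replicate block Ogdh kept its call (adjusted p = 0.0847). With a library left out, the list genes called higher ranged from 0 to 1 and those lower from 0 to 1. Ogdh was called without WT replicate 2 and lost its call without KO replicate 1, KO replicate 2 or WT replicate 1 (adjusted p = 0.999, 0.399 and 0.565), and its log2 fold change ran from 0.97 to 2.00. The genes called lower were Slc27a1 without KO replicate 2, Pdk4 without WT replicate 1 and Yy1 without WT replicate 2. The causes were not tested. A left-out fit assumes that the lone library of a group varies like the other group. Esrra, Ppara and Tfam were below the filter of the DESeq2 test. Without independent filtering their adjusted p was 0.999, and edgeR gave Tfam 0.938.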
